A study of Mus musculus with 6 samples.

Results

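Transcripts of atrial and pulmonary vein heart muscle were examined in lung RNA of WT and Zpbp2 KO mice. They comprised 9 genes chosen by name, Nppa, Nppb, Bmp10, Myl7, Myl4, Sln, Gja5, Hcn4 and Shox2, out of the 41388 genes of the deposited count table, and each name matched 1 gene. Both genotypes were on the C57BL/6J background, and RNA was taken from lungs of adult mice, with no treatment named, at Zeitgeber time 7 (ZT7), 7 h after lights on. The KO mice were of the strain B6.129S7-Zpbp2tmZuk/Mmjax, which lacks the first exons of Zpbp2 (exons 1 to 3), and the C57BL/6J controls came from the same colony. Each genotype had 3 libraries (WT1 to WT3 and KO1 to KO3), 1 per mouse according to the methods of the study, which asked how this region affects gene expression in lung. The strain name places the origin of the KO allele in 129S7 cells. Of the genes examined, Myl4 lies on the same chromosome as Zpbp2, 5.99 Mb away, and Myl7 lies 92.7 Mb away on that chromosome.

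Atrial muscle differs from ventricular muscle in its myosin light chains, in its calcium pump regulator and in the hormones that it secretes. In mice, a sleeve of heart muscle with many of these features continues from the left atrium along the pulmonary veins into the lung, so lung RNA can hold transcripts of this muscle. Nppa and Nppb encode the atrial and B-type natriuretic peptides, which lower blood volume and pressure, and Bmp10 encodes a ligand that the adult right atrium secretes into the blood. Myl7 and Myl4 encode the regulatory and essential myosin light chains of the atrium, and Sln encodes sarcolipin, an inhibitor of the sarcoplasmic reticulum calcium pump. Gja5 encodes connexin 40, the gap junction protein of the atrium and of the endothelium of arteries. Hcn4 encodes the main pacemaker channel of the sinus node, and Shox2 encodes a transcription factor of the sinus node and of pulmonary vein muscle.

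Total counts ranged from 59134950 to 71354388 per library, and 23070 to 23711 genes were detected. At this depth 3 counts, the floor used here, corresponded to 0.0410 to 0.0514 CPM (counts scaled to a common library size with the TMM method). Zpbp2 had 20, 15 and 7 counts in WT and 1, 0 and 0 counts in KO, at least 3.91-fold lower against a floor of 3 counts per library. KO2 and KO3 differed by little more than counting noise. The median ratio of their variance to counting variance was 1.72 to 3.31 over 4 ranges of count, against 1.86 to 51.5 for WT1 and WT2 and 3.77 to 162 for KO1 and KO2, and the ratio of the WT pair was close to it only for the lowest counts. KO2 and KO3 were therefore summed and counted as 1 sample (n = 3 for WT, n = 2 for KO). Whether they are 1 library, 1 RNA sample or separate mice cannot be told from the counts, and 3402 genes were called in place of 426 when the 6 libraries were kept separate. WT3 and KO1 stood apart from the rest on the first principal component, which held 66.9% of the variance. Summed transcripts of 12 skeletal muscle genes reached 3626 CPM in WT3 and 5390 CPM in KO1, while the other 4 libraries held 39.5 to 122 CPM, and those of 12 squamous epithelium genes were at 4630 and 8613 CPM against 6.93 to 8.97 CPM. Results are therefore also given without WT3 and KO1. The labelled tissue was checked with 11 lung epithelium and endothelium genes, whose summed level was 48008 to 51588 CPM in WT and 67067 to 76113 CPM in KO.

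The promoters of the genes are shown first, because the genes share regulators in heart muscle. Gene positions are given on GRCm38, and RefSeq promoters on GRCm38.p6 matched 8 of the 9 genes. Sln had no entry. The 250 bases before the start site are given 5′ to 3′ on the strand of the gene for Nppa (chr4:148000472-148000721, plus strand), Bmp10 (chr6:87428744-87428993, plus strand), Myl7 (chr11:5898783-5899032, minus strand) and Shox2 (chr3:66981772-66982021, minus strand), as a peptide hormone, a secreted ligand, the light chain used as a reference for ratios and the gene that passed the test. For Nppb only the stretch with its GATA matches is given (chr4:147985798-147985827, plus strand). It lies before the RefSeq start site but inside an exon of Nppb in GENCODE, whose gene start is further upstream. Capitals mark matches, on either strand, to the GATA motif (AGATAA or AGATAG, or either with T as its first letter), the NKX2-5 motif (AAGTG), the TBX5 motif (AGGTGT), the CArG box of serum response factor and the TATA box (TATAAA). None of these motifs contains another.
Nppa: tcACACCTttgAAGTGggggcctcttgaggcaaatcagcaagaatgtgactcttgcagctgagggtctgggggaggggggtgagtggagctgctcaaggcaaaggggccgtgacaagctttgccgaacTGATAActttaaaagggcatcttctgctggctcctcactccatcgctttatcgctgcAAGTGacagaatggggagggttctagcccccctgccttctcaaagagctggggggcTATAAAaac
Nppb: atgcagcTGATAAatcagAGATAAccccac
Bmp10: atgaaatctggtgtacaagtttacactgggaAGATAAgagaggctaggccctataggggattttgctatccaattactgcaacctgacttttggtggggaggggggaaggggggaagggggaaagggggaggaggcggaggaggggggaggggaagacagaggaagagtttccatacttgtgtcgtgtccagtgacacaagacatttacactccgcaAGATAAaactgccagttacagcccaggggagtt
Myl7: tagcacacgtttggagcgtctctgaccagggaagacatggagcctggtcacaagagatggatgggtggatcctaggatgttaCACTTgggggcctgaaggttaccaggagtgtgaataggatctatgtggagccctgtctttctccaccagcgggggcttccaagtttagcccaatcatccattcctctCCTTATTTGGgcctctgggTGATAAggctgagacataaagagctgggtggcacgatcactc
Shox2: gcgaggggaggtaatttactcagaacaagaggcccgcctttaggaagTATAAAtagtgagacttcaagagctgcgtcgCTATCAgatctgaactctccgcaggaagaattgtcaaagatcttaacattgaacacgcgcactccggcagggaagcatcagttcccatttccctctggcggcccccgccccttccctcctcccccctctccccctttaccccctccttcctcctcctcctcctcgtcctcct

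A GATA match was present in 5 of the 8 promoters (Nppa, Nppb, Bmp10, Myl7 and Shox2), against 26.5% of 32851 mouse promoters searched over the same length. The match nearest to the RefSeq start site began 122 bases before it in Nppa, 84 in Nppb, 33 in Bmp10, 42 in Myl7 and 172 in Shox2. Both Nppb matches lie after the start of the gene in GENCODE, so they are upstream only of the RefSeq start. An NKX2-5 match was found in Nppa, Myl7, Myl4 and Gja5 and in 40.7% of all promoters. The Myl4 window overlaps an exon of Cdc27, and the Gja5 window (chr3:97032152-97032401) lies inside the Gja5 gene in GENCODE. A TBX5 match was found in Nppa and Hcn4 and in 11.8% of all promoters. The Myl7 promoter held a CArG box 61 bases before the start, as 1.47% of promoters did, and Nppa, Nppb and Shox2 held a TATA match, as 12.4% did. These matches describe the letters of the windows only.

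All 9 genes were detected, and the fold change estimate was lower in KO for each of them. Shox2 was the only one that passed the test over all genes (edgeR quasi-likelihood test, adjusted p of at most 0.05 after Benjamini-Hochberg adjustment). That test called 426 of 18660 genes (2.28%), with 0.906% of genes called lower and 1.38% called higher in KO. The median log2 fold change of KO against WT was -2.19 over the 9 genes, with Bmp10 at its fitted value or at its bound, and 0.02 over all tested genes, of which 47.8% had an estimate below 0. Without WT1 the median was -1.36 over the 8 genes that could be tested, since Bmp10 was then filtered out. Every KO library lay below every WT library for 6 of the 9 genes, namely Nppa, Nppb, Myl7, Myl4, Hcn4 and Shox2, while 20.7% of tested genes had this order. All 9 passed the filter on low counts, but Nppb and Bmp10 could pass it only through their WT libraries, so these shares are a description. In bulk tissue a smaller amount of heart muscle in the sample and less RNA per cell cannot be told apart.

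**Figure D1:**
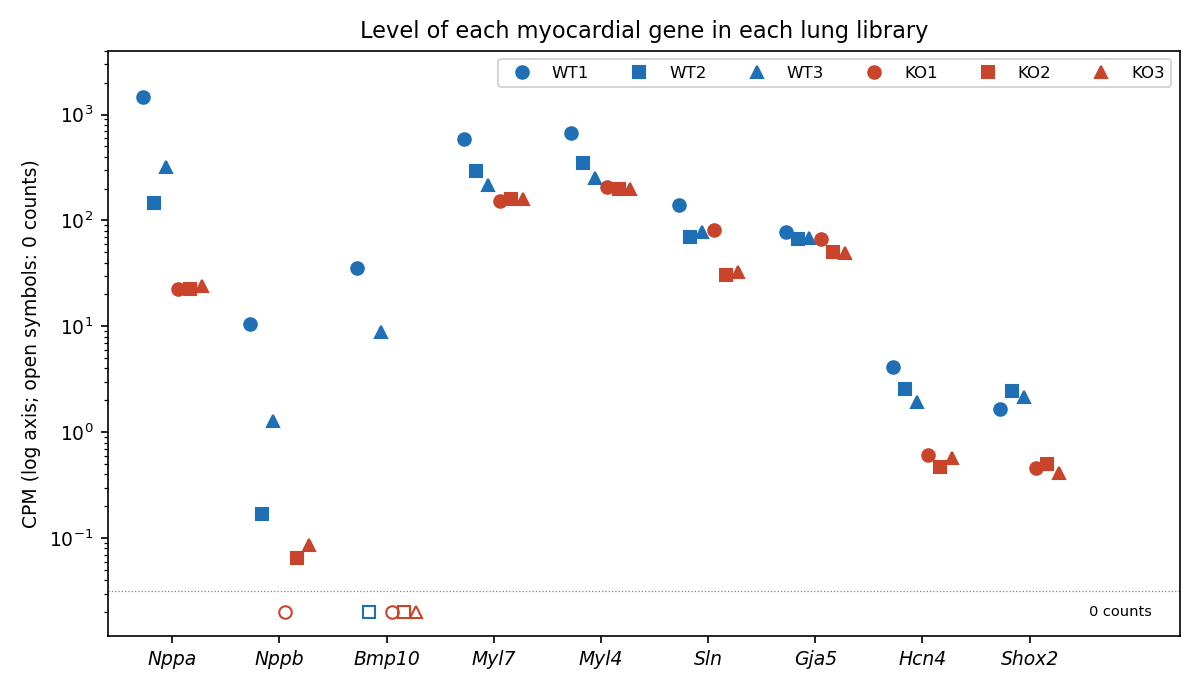
Level of each of the 9 genes in each of the 6 libraries, in CPM on a log axis, with WT in blue, KO in red and open symbols for 0 counts. Nppa ran from 146 to 1470 CPM in WT and from 22.3 to 23.9 CPM in KO, while the Sln and Gja5 levels of KO1 lay among those of WT.

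Nppa showed the widest separation among the genes with counts in every library. It had 107614, 10233 and 19300 counts in WT1 to WT3 and 1408, 1384 and 1393 counts in KO1 to KO3, or 1470, 146 and 322 CPM against 22.3, 22.3 and 23.9 CPM. The groups did not overlap, the KO libraries were nearly level, and WT1 stood 10.1-fold above WT2 and 4.57-fold above WT3. The means were 646 ± 719 CPM in WT (SD, n = 3) against 22.7 ± 0.519 CPM in KO (SD, n = 2), which is 28.4-fold lower. The log2 fold change was -4.83 ± 1.21 (SE), adjusted p = 0.0867, and did not pass, and it was -3.36 (adjusted p = 0.170) without WT1. With the 6 libraries kept separate, it was -4.82 and passed (adjusted p = 0.0189), in a fit that called 18.9% of 18014 genes and 9.07% of them lower in KO. Nppa lies at chr4:148000722-148002079 on the plus strand, and its exons overlap those of the antisense gene Gm13054, which had 29 to 53 counts per library.

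Nppb, its neighbour at chr4:147985788-147987205 on the plus strand, had 766, 12 and 77 counts in WT and 0, 4 and 5 counts in KO. These are 10.5, 0.171 and 1.28 CPM in WT and 0, 0.0645 and 0.0856 CPM in KO. The groups did not overlap, but WT2 with its 12 counts lay close to the KO libraries and WT1 was 61.2-fold above WT2. The means of 3.97 ± 5.65 CPM in WT (SD, n = 3) against 0.0375 ± 0.0531 CPM in KO (SD, n = 2) therefore rest on WT1. The estimate on the log2 scale was -6.45 ± 2.31 (SE, adjusted p = 0.158), and without WT1 it was -3.98 (adjusted p = 0.268). Without KO2 and KO3 it was -11.06 (adjusted p = 0.241), a fitted value against KO1 with 0 counts and no bound.

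Bmp10, at chr6:87428994-87437677 on the plus strand, had 2578, 0 and 532 counts in WT and 0 counts in all 3 KO libraries. WT1 and WT3 stood at 35.2 and 8.87 CPM, while WT2 was at 0 like the KO libraries, so the groups overlapped. Against a floor of 3 counts per KO library, the KO level was at least 286-fold lower than the WT mean of 14.7 ± 18.3 CPM (SD, n = 3). This bound is set by WT1 and WT3 alone. The adjusted p was 0.188, and the gene was filtered out when the 6 libraries were kept separate and when WT1 or WT3 was left out.

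Both light chains of the atrial sarcomere were at a lower level in each KO library than in any WT library, though neither passed the test. Myl7 had 588, 295 and 217 CPM in WT and 152, 159 and 160 CPM in KO. WT3 was the lowest WT library, and WT1 was 1.99-fold above WT2. The means were 367 ± 196 CPM in WT (SD, n = 3) against 156 ± 4.71 CPM in KO (SD, n = 2), 2.35-fold lower in KO, with a log2 fold change of -1.23 ± 0.45 (SE) at an adjusted p of 0.165. Myl4 had 666, 346 and 254 CPM in WT and 206, 199 and 197 CPM in KO. In WT the order of its libraries was that of Myl7, with WT1 1.93-fold above WT2, while in KO the order was the reverse. Myl4 again showed no overlap between the groups. Its means were 422 ± 216 CPM in WT (SD, n = 3) against 202 ± 5.97 CPM in KO (SD, n = 2), 2.09-fold lower in KO, and its log2 fold change was -1.06 ± 0.43 (SE), adjusted p = 0.196. Without WT1, the estimates were -0.71 for Myl7 and -0.56 for Myl4, at adjusted p of 0.185 and 0.215. Myl7 lies at chr11:5896637-5898782 on the minus strand and Myl4 at chr11:104550663-104595753 on the plus strand, where the exons of Gm22000, with at most 10 counts, overlap on the opposite strand.

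Sln, at chr9:53850164-53854560 on the plus strand, had 141, 69.7 and 77.8 CPM in WT and 80.5, 30.4 and 32.3 CPM in KO. KO1 lay above WT2 and WT3, so the groups overlapped, and it stood 2.57-fold above the mean of KO2 and KO3. The means were 96.1 ± 38.8 CPM in WT (SD, n = 3) against 55.9 ± 34.8 CPM in KO (SD, n = 2). Sarcolipin is also made by skeletal muscle, whose 12 marker genes had their highest sum in KO1 and the next in WT3, and the part of that muscle in the Sln level was not tested. The log2 fold change was -0.78 ± 0.51 (SE), adjusted p = 0.386, with -1.62 (adjusted p = 0.156) without KO1 and -0.26 (adjusted p = 0.735) without KO2 and KO3. Without both WT3 and KO1 it was -1.75 (adjusted p = 0.0166).

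Gja5 had the smallest difference. It had 77.9, 66.1 and 67.7 CPM in WT and 66.3, 50.7 and 48.8 CPM in KO, and KO1 lay between WT2 and WT3. The means were 70.5 ± 6.39 CPM in WT (SD, n = 3) against 58.0 ± 11.7 CPM in KO (SD, n = 2), and the log2 fold change was -0.28 ± 0.14 (SE), adjusted p = 0.283. It was -0.51 (adjusted p = 0.122) without KO1 and -0.09 (adjusted p = 0.637) without KO2 and KO3. WT1 was only 1.18-fold above WT2 for Gja5, against 1.61-fold for Hcn4 and 1.99-fold for Myl7. Gja5 spans chr3:96904693-97077416 on the plus strand, and its exons overlap those of Gpr89 on the opposite strand, which had 1483 to 2119 counts. Whether counting used the strand is not stated, so reads in the overlap are uncertain.

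The pacemaker channel gene Hcn4, at chr9:58823412-58863175 on the plus strand, had 303, 181 and 115 counts in WT and 38, 29 and 33 counts in KO. The levels were 4.14, 2.58 and 1.92 CPM against 0.603, 0.467 and 0.565 CPM. Each KO library was below each WT library. The means were 2.88 ± 1.14 CPM in WT (SD, n = 3) against 0.560 ± 0.0614 CPM in KO (SD, n = 2), 5.14-fold lower in KO. At -2.36 ± 0.40 (SE) the log2 fold change missed the threshold with an adjusted p of 0.0521, and it passed with the 6 libraries kept separate (-2.40, adjusted p = 0.00872).

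Shox2 was lower in KO and passed the test. It had 122, 174 and 130 counts in WT and 29, 31 and 24 counts in KO, or 1.67, 2.48 and 2.17 CPM against 0.46, 0.50 and 0.41 CPM. The groups did not overlap, the libraries of each genotype lay close together, and WT1 was the lowest of the WT libraries, whereas it was the highest for the other 8 genes. The means were 2.10 ± 0.409 CPM in WT (SD, n = 3) against 0.458 ± 0.00352 CPM in KO (SD, n = 2), 4.59-fold lower in KO. The SD of KO is that between KO1 and the mean of KO2 and KO3, and the single libraries spread wider, from 0.41 to 0.50 CPM. The log2 fold change was -2.19 ± 0.24 (SE), adjusted p = 0.0446. It was -2.33 without WT1, -2.06 without WT2, -2.17 without WT3, -2.20 without KO1 and -2.19 without KO2 and KO3, but at adjusted p of 0.170, 0.189, 0.123, 0.0854 and 0.0840 the call was lost each time, as it was with an offset for exon length (adjusted p = 0.0855). Shox2 lies at chr3:66971727-66981771 on the minus strand, and 382 bases are shared with Rsrc1 on the opposite strand. Rsrc1, with 1584 to 2008 counts, stood at -0.07 (adjusted p = 0.483).

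**Figure D2:**
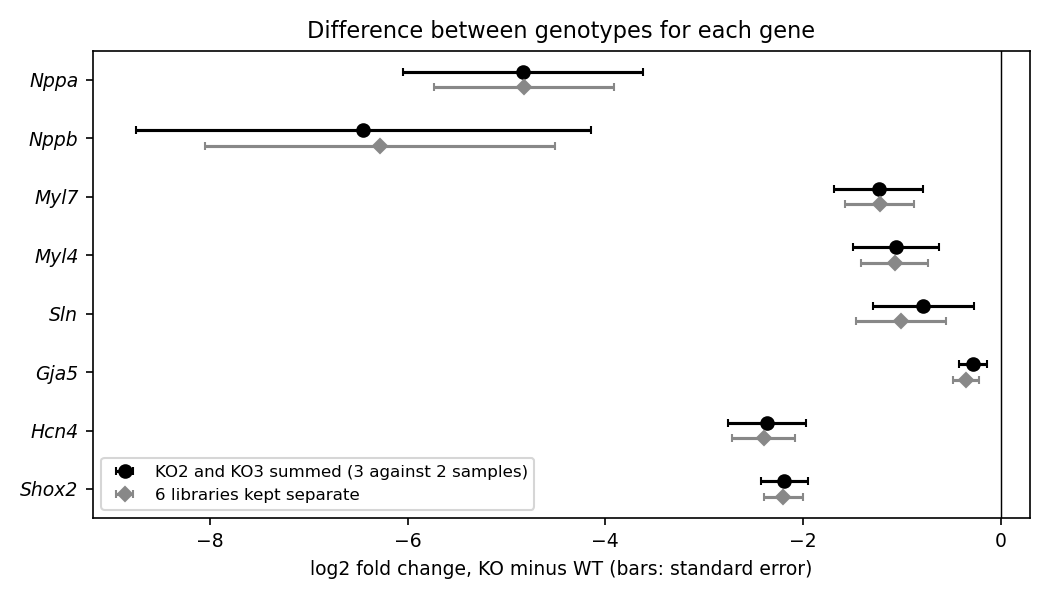
Log2 fold change of KO against WT with its standard error for 8 genes, with KO2 and KO3 summed (black) and with the 6 libraries kept separate (grey); Bmp10, at 0 counts in KO, is left out because its fitted value is no bound. All estimates lie below 0, from -0.28 for Gja5 to -6.45 for Nppb, and the bars are shortest for Gja5 and Shox2.

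Keeping the 6 libraries separate called 3 of the 8 genes that could be tested, Nppa, Hcn4 and Shox2, all lower in KO, where 18.9% of all genes were called and 9.07% were called lower. Without WT3 and KO1, 7 of the 9 were called, all but Nppb (adjusted p = 0.0964) and Bmp10 (0.103), where the test called 11.9% of all genes. In that comparison KO is represented by the sum of KO2 and KO3 alone, which is assumed to vary like WT1 and WT2. The log2 fold changes were -5.14 for Nppa, -1.48 for Myl7, -1.36 for Myl4, -2.71 for Hcn4, -0.54 for Gja5 and -2.18 for Shox2. The directions are the ones found with all libraries, and the calls depend on which libraries enter. With edgeR 0 genes of the whole table were called without WT1, WT2, WT3 or both KO2 and KO3 (3346 to 5070 at an unadjusted p under 0.05), which holds for the calls of other genes given here too.

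Levels of different genes were compared per kilobase of exon. In WT the order was Nppa with 747 ± 831 CPM per kilobase (SD, n = 3), Myl7 with 622 ± 332, Myl4 with 91.0 ± 46.7, Sln with 72.9 ± 29.4, Gja5 with 12.3 ± 1.11, Nppb with 5.09 ± 7.23, Bmp10 with 3.27 ± 4.08, Shox2 with 0.635 ± 0.124 and Hcn4 with 0.470 ± 0.186. The pairs Nppa and Myl7, Myl4 and Sln, Gja5 and Nppb, Nppb and Bmp10, Bmp10 and Shox2, and Shox2 and Hcn4 overlapped among the WT libraries and so do not differ beyond their spread. Myl7 lay above Myl4, and Sln above Gja5, in every WT library without overlap. The order of Myl7 and Myl4 rests on their exon lengths of 590 and 4637 bases, since Myl4 had the higher CPM in every library. With its longest transcript of 3273 bases, Myl4 was at 129 CPM per kilobase in WT, still below Myl7. In KO the light chain Myl7 led with 264 ± 7.99 CPM per kilobase (SD, n = 2), followed by Myl4 with 43.6 ± 1.29, Sln with 42.4 ± 26.4 and Nppa with 26.3 ± 0.599. Sln overlapped Myl4 and Nppa among the KO libraries, and Nppa stood in the fourth place here against the first in WT. That first place rests on WT1, with 1699 CPM per kilobase for Nppa against 997 for Myl7. In WT2 Nppa was at 168 against 501 for Myl7, and in WT3 at 372 against 368. In KO, Gja5 followed Nppa with 10.1 ± 2.03, then Shox2 with 0.138 and Hcn4 with 0.0915 CPM per kilobase.

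The share of the library that these genes took was also read as 1 sum. The 9 genes held 0.307%, 0.0946% and 0.0956% of all counts in WT1 to WT3 and 0.0517%, 0.0456% and 0.0457% in KO1 to KO3. Nppa made up 49.1%, 15.7% and 33.8% of the counts of the 9 genes in WT and 4.23%, 4.83% and 5.16% in KO. The composition of the signal thus differed between libraries as well as its amount.

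Ratios to Myl7 within a library show which genes kept their proportion to the light chain. Per kilobase, Nppa was at 1.70, 0.336 and 1.01 times the Myl7 level in WT1 to WT3 and at 0.100, 0.0959 and 0.102 times in KO1 to KO3. All KO ratios were below all WT ratios, and the KO ratios differed by no more than 1.06-fold. The ratio of Myl4 to Myl7 stayed between 0.144 and 0.172 over the 6 libraries, a range of 1.19-fold, while the level of Myl7 itself ran from 152 to 588 CPM. Within this range it was 0.144, 0.149 and 0.149 in WT and 0.172, 0.159 and 0.157 in KO, so every KO ratio was above every WT ratio. The size of this ratio rests on the exon lengths used for Myl4 and Myl7. For Hcn4 the ratio was 0.000678, 0.000841 and 0.000853 in WT and 0.000381, 0.000284 and 0.000341 in KO. The ratios of Hcn4 did not overlap between the groups either. For Shox2 the ratio was 0.000505, 0.00149 and 0.00178 in WT against 0.000538, 0.000561 and 0.000459 in KO. WT1 thus lay among the KO libraries for Shox2. The ratio of Gja5 was 0.0136, 0.0230 and 0.0320 in WT and 0.0446, 0.0328 and 0.0314 in KO, and the ratio of Sln was highest in KO1, at 0.236 against 0.0859 to 0.161 elsewhere. With 3 against 2 samples the two-sided exact permutation test cannot give a p below 0.2, so none of the 8 ratios could pass, and the smallest adjusted p over them was 0.32.

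**Figure D3:**
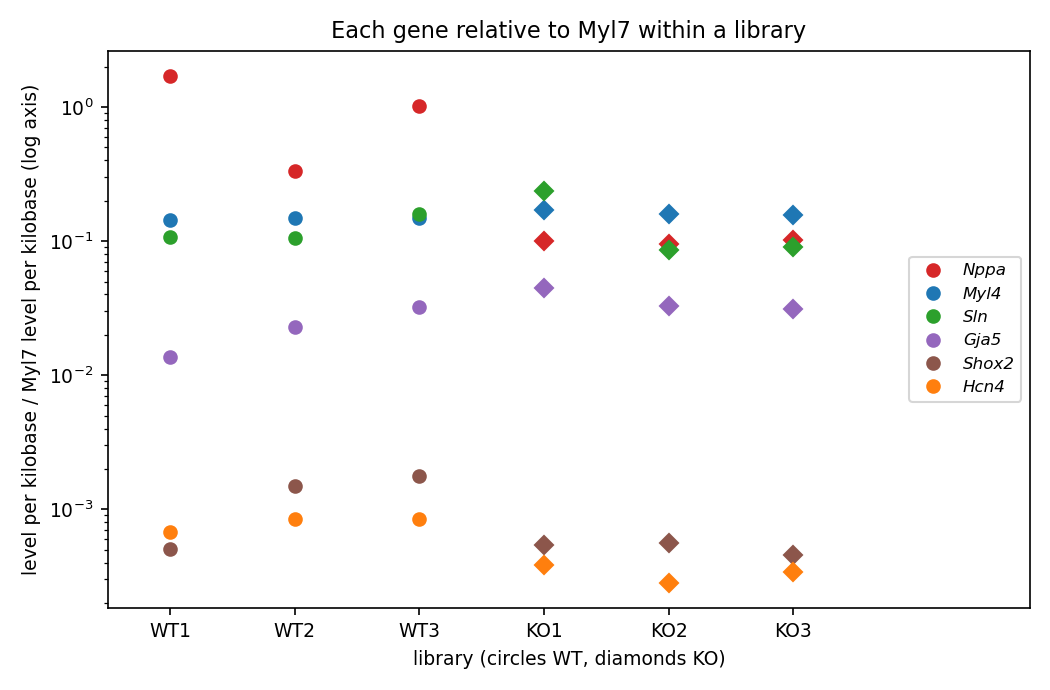
Level per kilobase of 6 genes divided by that of Myl7 in the same library, on a log axis, with circles for WT and diamonds for KO. Myl4 lies between 0.144 and 0.172 with all KO values above all WT values, while Nppa lies between 0.336 and 1.70 in WT and near 0.100 in KO.

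Other heart muscle genes mostly had lower levels in KO, few of which passed a test. Of 12 pan-cardiac sarcomere genes, 11 had an estimate below 0, their median was -0.77, and 0 were called. Their summed level was 2794 to 5548 CPM in WT and 1159 to 2135 CPM in KO. Some of them were high in WT1 and also in WT3 and KO1, the libraries with skeletal muscle transcripts. Ttn had 534, 293 and 642 CPM in WT and 515, 78.4 and 82.9 CPM in KO, and Nrap had 42.1, 21.4 and 75.4 CPM in WT and 91.2, 8.65 and 8.31 CPM in KO. Actn2, Myom2 and Csrp3 were highest in WT1, at 159, 131 and 107 CPM, and next highest in KO1, at 132, 112 and 104 CPM, and the part of skeletal muscle in the sums was not tested. Myh6, the alpha myosin heavy chain of the mouse atrium and ventricle and the most abundant of them, had 2305, 1071 and 787 CPM in WT and 389, 359 and 364 CPM in KO, a log2 fold change of -1.88 (adjusted p = 0.0965). Actc1, cardiac actin, was next in abundance and had -0.82 (adjusted p = 0.194). Kept as 6 libraries, where 9.07% of all genes were called lower, 3 were called lower, namely Myh6 (adjusted p = 0.0230), Tnnc1, troponin C (0.0468), and Mybpc3, myosin binding protein C (0.0169). All 10 calcium handling genes had an estimate below 0 with a median of -0.96, and 0 were called. Their sums were 1251 to 2396 CPM in WT and 695 to 796 CPM in KO. In the same comparison of 6 libraries, again against 9.07% of all genes, 6 were called lower, which were Ryr2, Casq2, Pln, Atp2a2, Cacna1c and Slc8a1. Atp2a2, the calcium pump on which sarcolipin acts, had 1590, 933 and 801 CPM in WT and 479, 460 and 461 CPM in KO, a log2 fold change of -1.24 (adjusted p = 0.0922, or 0.0220 with 6 libraries). Ryr2, the calcium release channel, had -2.05 (adjusted p = 0.0721, or 0.0157 with 6 libraries).

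Markers of the ventricle were mixed. Of 5 genes, 4 could be tested and 0 were called. Myl2, the ventricular regulatory light chain, had 1760, 11 and 608 counts in WT and 7, 8 and 7 counts in KO. WT1 and WT3 were high, as they were for Bmp10 and Nppb, while WT2 lay with the KO libraries. Its log2 fold change was -6.57 (adjusted p = 0.140, or 0.0410 with 6 libraries). Myl3, a light chain of the ventricle and of slow skeletal muscle, had 124 CPM in WT3 and 266 CPM in KO1, the libraries with skeletal muscle transcripts, against 8.51 to 27.1 CPM elsewhere. Myh7, the slow myosin heavy chain, differed by -0.10 on the log2 scale (adjusted p = 0.871).

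Of 19 transcription factors and channels of the atrium and sinus node, 14 had an estimate below 0, against 47.8% of all tested genes. The median was -0.54. Cacna1d, a calcium channel of pacemaker cells that other tissues also express, was among those called lower in KO, as 0.906% of all genes were. It had 72.0, 75.7 and 76.8 CPM in WT and 58.97, 53.8 and 54.6 CPM in KO, a log2 fold change of -0.40 (adjusted p = 0.0474). The groups did not overlap for Cacna1d, and WT1 was the lowest WT library. With 6 libraries, 9.07% of all genes were called lower. Those of this list then also included the heart transcription factors Nkx2-5 and Tbx20 and the T-type calcium channel Cacna1g. Kcnj3 and Kcnj5, the subunits of the acetylcholine-activated potassium channel of the atrium, were called lower as well. The log2 fold changes with KO2 and KO3 summed were -2.15 for Nkx2-5, -1.58 for Tbx20, -2.13 for Kcnj3, -1.79 for Kcnj5 and -1.35 for Cacna1g. WT1 was the highest WT library for each of these genes, with 5.27 CPM for Nkx2-5 against 1.54 and 1.78 CPM in WT2 and WT3. The most abundant genes of this list, Tbx3 and Gja1, had 0.15 and -0.12 (adjusted p = 0.462 and 0.799).

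Genes that process, bind or clear natriuretic peptides were read beside Nppa and Nppb. Of 8 genes, 7 could be tested, and their median was -0.45. Npr3, the clearance receptor, was called lower in KO, as 0.906% of all genes were. It had 89.6, 98.9 and 88.1 CPM in WT and 67.5, 65.8 and 67.9 CPM in KO (log2 fold change -0.45, adjusted p = 0.0474). Corin, the protease that cleaves the Nppa precursor, had 40.6, 19.0 and 14.2 CPM in WT and 4.03, 4.45 and 3.29 CPM in KO. WT1 was highest for Corin and all KO libraries were below WT, as for Nppa and Myl7 and also for Myh6 and Atp2a2, at a log2 fold change of -2.63 (adjusted p = 0.0615, or 0.0119 with 6 libraries). Pam, a peptide amidating enzyme that is abundant in atrial granules, had -0.99 (adjusted p = 0.126, or 0.0340 with 6 libraries), and Mme, neprilysin, which degrades the peptides, had -0.46 (adjusted p = 0.0537, or 0.0102 with 6 libraries). Npr1, the receptor of both peptides, was at 245 to 267 CPM in all 6 libraries, with a log2 fold change of 0.07 (adjusted p = 0.534).

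Receptors and targets of BMP10 and its relative BMP9 were examined beside Bmp10. Of 17 genes, 6 had an estimate below 0, against 47.8% of all tested genes. These were the receptor genes Bmpr2 and Acvr2a and the signal transducers Smad1, Smad5, Smad9 and Smad4, none of them called with KO2 and KO3 summed. The median was 0.10, and 1 was called, Id3, a target gene of the pathway. Over all tested genes 2.28% were called, and 1.38% were called higher in KO. Id3 was higher in KO, with 166, 154 and 161 CPM in WT and 228, 211 and 212 CPM in KO (log2 fold change 0.46, adjusted p = 0.0472). With 6 libraries, where 9.81% of all genes were called higher, Id1, Id2, Id3 and the inhibitory Smad gene Smad6 were called higher and the receptor gene Acvr2a lower. The receptor gene Acvrl1 and the coreceptor gene Eng, both of endothelium, were the most abundant and had 0.08 each (adjusted p = 0.712 and 0.753).

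Genes that resembled the atrial genes most over the 6 libraries were ranked by Pearson correlation of log2(CPM + 0.5) with the mean standardised profile of the 9 genes, among 15140 genes with a mean of at least 1 CPM. The first 10 were Adprhl1 (r = 0.999), Got1, Mmp9, Timm44, Pam, Antxr2, Dkk3, Acad12, Ndrg4 and Exoc6b (r = 0.991). The correlations rest on 6 libraries, 2 of which are nearly the same sample, and share the position of WT1. Adprhl1, a gene of heart muscle, had 17.1, 7.12 and 8.27 CPM in WT and 3.81, 2.76 and 2.60 CPM in KO (log2 fold change -1.74, adjusted p = 0.0950). Likeness of profile was not likeness of size, since Timm44 differed by only -0.04 on the log2 scale (adjusted p = 0.611). None of the 10 was called. Among the 9 genes themselves, r was 0.997 for Myl7 and Myl4, 0.989 for Sln and Gja5, 0.959 for Nppb and Bmp10 and 0.514 for Shox2 and Nppb, each over the same 6 libraries.

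Transcripts of other tissues around the heart and lung differed between the same libraries. The 8 brown adipocyte genes summed to 129 to 322 CPM in WT and 83.5 to 90.7 CPM in KO, with a median log2 fold change of -1.40 and 0 called. With 6 libraries, 6 of them were called lower, against 9.07% of all genes (Ucp1, Cidea, Cox7a1, Cox8b, Ppargc1a and Dio2), while the most abundant, Prdm16, had -0.06 (adjusted p = 0.815). Ucp1, which defines brown fat, had 3623, 9275 and 376 counts in WT and 6, 6 and 8 counts in KO. The 10 white adipocyte genes summed to 1046 to 1537 CPM in WT and 340 to 516 CPM in KO, with a median of -2.17. Plin1, Pck1 and Lipe were called lower, where 0.906% of all tested genes were. Adipoq, Lep, Cidec, Fabp4 and Pnpla2 joined them with 6 libraries, where 9.07% of all genes were called lower, and the abundant Cfd did not. All 10 white adipocyte genes and 6 of the 8 brown adipocyte genes had every KO library below every WT library, against 20.7% of tested genes, and all 10 white adipocyte genes were highest in WT2 and not in WT1.

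The 8 smooth muscle genes, led by Des and Acta2, summed to 1159 to 1794 CPM in WT and 1361 to 2114 CPM in KO with 0 called. No skeletal muscle gene (Acta1 and Ckm were the most abundant) and no squamous epithelium gene (Krt4 and Krt13) was called, also with 6 libraries. Of the 11 lung genes, 5 were called higher in KO (Sftpc, Sftpb, Sftpa1, Ager and Hopx), where 1.38% of all genes were, and Scgb1a1 joined them with 6 libraries, where 9.81% were. The 7 erythroid genes, among them Hbb-bs and Hba-a1, had 0 calls, and their sum of 18997 and 19742 CPM in KO2 and KO3 compares with 2400 to 5523 CPM elsewhere. Liver genes stood at 44.4 and 44.3 CPM in those libraries and at 2.93 to 6.43 CPM elsewhere. With 6 libraries 4 of them were called higher (Alb, Apoa1, Apoa2 and Ttr), where 9.81% of all genes were. The part of the fat, blood and liver transcripts, and of the tissue taken with each lung, in the levels of the atrial genes was not tested.

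**Figure D4:**
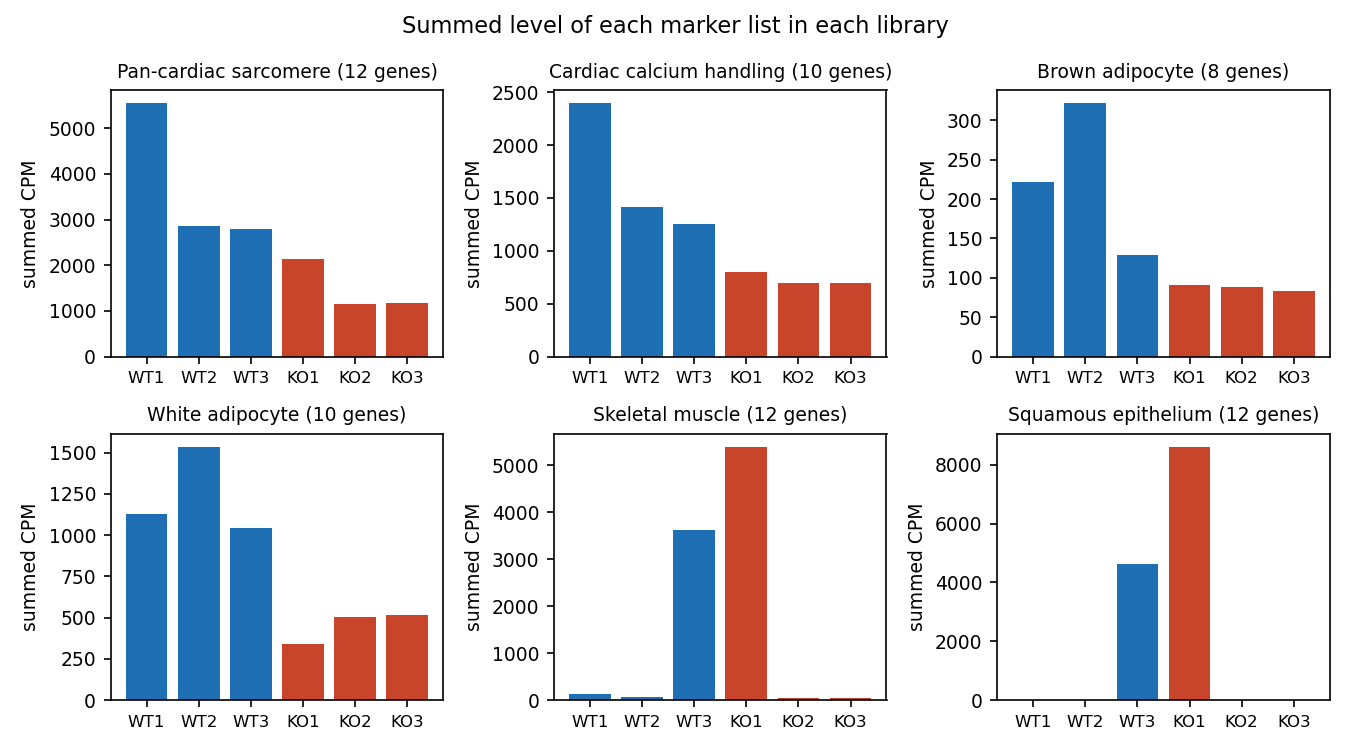
Summed CPM of 6 marker lists in each library, with WT in blue and KO in red, each panel on its own linear axis from 0. The sums of the heart muscle and brown and white fat lists were lower in all KO libraries than in all WT libraries. Those of skeletal muscle and squamous epithelium were high in WT3 and KO1.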

How the data were processed

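Lung RNA of 3 WT and 3 KO mice at ZT7 was sequenced. The authors deposited raw counts, that is, unnormalized reads for each gene in each library. The submitters' processing notes name Trimmomatic 0.36, STAR 2.5.3a, Picard 2.9.0, HTSeq 0.6.0 and mm10. The annotation release and strand setting are not given in the sources used here, so counts of overlapping genes are uncertain. All 6 count columns were used, and 0 entries named no gene. Coordinates and exon lengths came from GENCODE on GRCm38 (97.3% of genes matched).

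Counts were tested in R 4.3.3 with edgeR 4.0.16 (filterByExpr, TMM scaling, quasi-likelihood test of genotype, two-sided), with Benjamini-Hochberg adjustment over all tested genes and a threshold of 0.05. KO2 and KO3 were summed for the test, and their counts per scaled library (CPM) were averaged into 1 replicate for each mean ± SD. Standard errors are the estimate divided by the root of F. The code was checked on simulated data. Alternatives were 6 separate libraries, a replicate block, DESeq2 1.42.0, other scalings, no filter, a length offset and leaving out libraries. Depth limits cover counting error only, because duplicate reads are not independent molecules.

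The genes, the lists and the tests were chosen with earlier results of these data known. Named are the 9 genes, Zpbp2, the genes of each list called with KO2 and KO3 summed or with 6 libraries, the 2 most abundant genes of a list, and the 10 genes of most similar profile. A doubt about strand or overlap is given beside the gene. The result of 1 listed gene is not reported here. Ttn, Nrap, Actn2, Myom2, Csrp3, Bmpr2, Smad1, Smad5, Smad9 and Smad4 fall outside this rule and were chosen after their values were seen.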

Additional observations from a re-analysis of the deposited data

How the results depend on the processing

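Every alternative that tested one of the 9 genes kept its estimate below 0, and 0 results reversed. The number of genes called was 426 and moved to 3402 with 6 separate libraries, 1157 with the replicate block, 3919 with DESeq2 and 4 with the length offset. The number of the 9 genes called was 1 and moved to 3, 3, 5 and 0 in these, and to 2 without a filter on low counts. Over all tested genes 2.28% were called, and 18.9%, 6.42%, 21.0%, 0.0216% and 1.53% in these alternatives, in the same order. The median log2 fold change of the 9 genes, -2.19, moved to -1.71 with 6 separate libraries and -1.64 with the replicate block. Both are over 8 genes because Bmp10 was filtered out. DESeq2 called Nppa, Nppb, Bmp10, Hcn4 and Shox2. Library size alone gave 306 calls, 117 higher and 189 lower, against 257 and 169 with TMM.

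Leaving out 1 sample or library in turn gave 0 to 418 called genes, 0 to 1 of the 9 called, and a median of -2.26 to -1.36, the last without WT1 and over 8 genes. The count was 0 without WT1, WT2, WT3 or KO2 with KO3 (3642, 3346, 4193 and 5070 genes at an unadjusted p under 0.05 with edgeR) and 17 without KO1. Leaving out WT3 and KO1 together, chosen after seeing the data, gave 2256 called genes and 7 of the 9. Shox2 lost its call in 6 of 15 alternatives, with an adjusted p from 5.21e-10 to 0.189.

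Replicate numbers did not pair the samples. Deviations of same-numbered libraries from their group means correlated at -0.66, 0.75 and -0.82, and the block shows only how a shared number moves the counts. With the block, Sln (adjusted p = 0.0374), Hcn4 (0.0388) and Shox2 (0.0374) passed. With the longest transcript in place of all exons, Gja5 moved from 12.3 to 19.2 CPM per kilobase in WT. Depth limits Nppb, Bmp10 and Zpbp2, whose KO libraries held 0 to 5 counts.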
